A study of Mus musculus with 6 samples.

Results

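The genes described here are 9 of the 17975 genes measured in mouse liver, chosen by symbol because they belong to the liver's fasting programme around the nuclear receptor PPARα. They were Ppara itself, its coactivator gene Ppargc1a, the ketone body enzyme gene Bdh1, the ω-hydroxylase genes Cyp4a10 and Cyp4a14, the secreted factor genes Angptl4 and Fgf21, the pyruvate dehydrogenase kinase gene Pdk4 and the pantetheinase gene Vnn1. All 9 passed the filter on low counts and were tested among 13805 genes. RNA was sequenced from whole liver tissue of 3 WT mice and 3 Hom mice. Hom mice were homozygous for the floxed allele and carried Cre (NEK7fl/fl-Alb-Cre+), so that NEK7, a mitotic kinase that also takes part in inflammasome assembly, was deleted where the albumin promoter is active, which means in hepatocytes. Cell types were not separated, so the state of the gene in the other cells of the liver is not shown by these data. The paper's reporting summary gives an age range of 6 to 10 weeks for the mice in general and states that both sexes were used in experiments with knockout mice. The paper also describes Hom mice older than this range, which had diffuse liver fibrosis and impaired liver function. The sources used here do not tie an age or a sex to each sequenced mouse, or say whether the WT mice carried floxed alleles. The mice had free access to food, and no fast before tissue collection was stated, so the values are those of livers not described as fasted.

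PPARα is a receptor for fatty acids and their derivatives that binds DNA together with RXR and switches on genes of fatty acid uptake, oxidation and ketone body production. In a fasted liver, fatty acids arriving from adipose tissue activate it, PGC-1α (the product of Ppargc1a) reinforces its action, and the liver exports ketone bodies for other organs. Genes of the Cyp4a group are among its most responsive targets in rodents, and Angptl4, Pdk4, Vnn1 and Fgf21 are also induced by fasting or by PPARα agonists.

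Of the 9 genes, 6 were lower in Hom than in WT livers, none was higher and 3 did not pass the test (edgeR's quasi-likelihood test, Benjamini-Hochberg adjusted p under 0.05). Across all tested genes, 20.1% were lower and 21.5% were higher, 41.7% in either direction. The 6 genes fell into a group that was reduced to between 3.23% and 10.6% of the WT mean and a group with a smaller reduction. Cyp4a14, Cyp4a10 and Angptl4 had log2 fold changes of -4.95, -3.65 and -3.24, a size of fall (-2 or below) that 1.11% of all tested genes reached. Ppara, Bdh1 and Ppargc1a had log2 fold changes of -1.30, -1.30 and -0.87. Pdk4, Vnn1 and Fgf21 were the 3 genes that did not pass. Over all 9 genes the median log2 fold change was -1.30, and over all tested genes it was -0.0018. For 5 of the 9 genes all 3 Hom livers lay below all 3 WT livers, a separation in this direction that 27.0% of all tested genes showed.

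**Figure D1:**
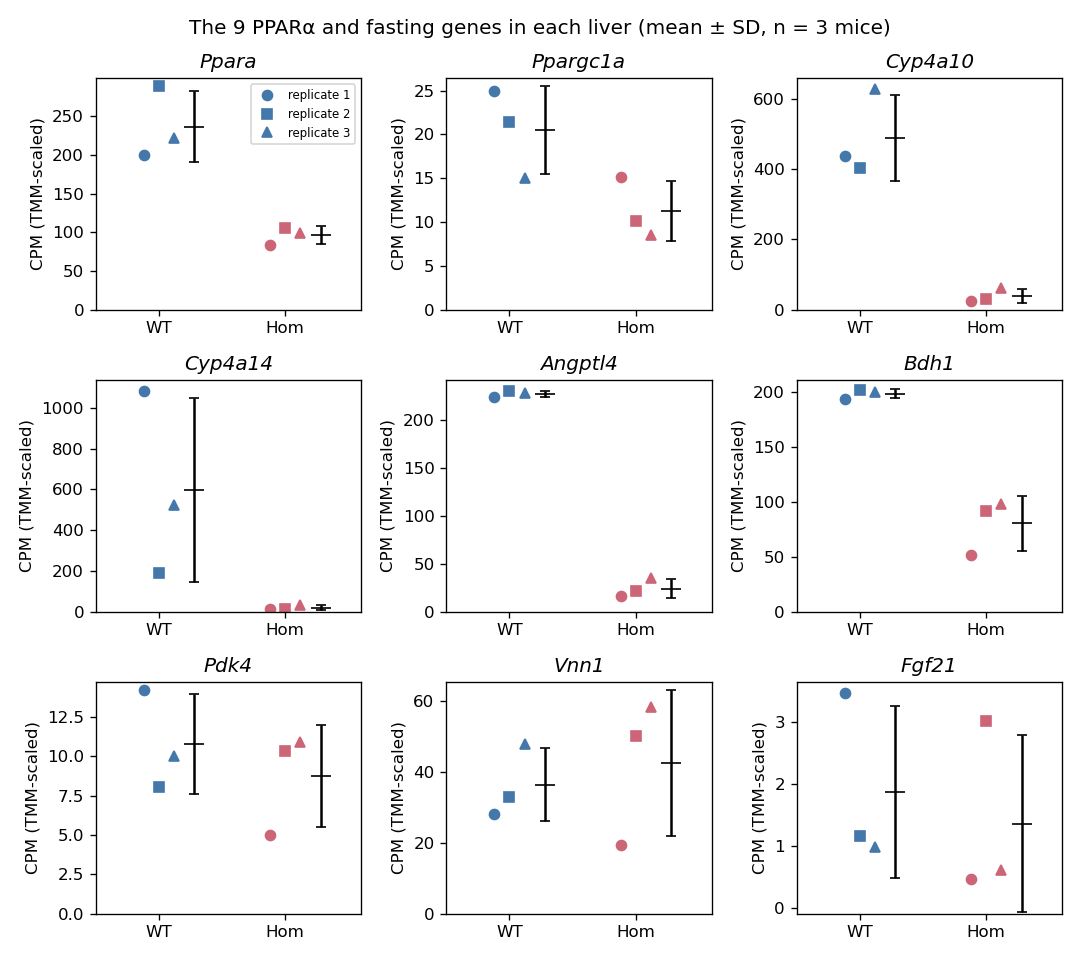
Expression of the 9 genes in each liver as CPM scaled with TMM factors (vertical axes, linear), with WT livers in blue, Hom livers in red, and bars for the mean ± SD of 3 mice. All Hom points lie below all WT points for Ppara, Cyp4a10, Cyp4a14, Angptl4 and Bdh1, while the groups overlap for Ppargc1a, Pdk4, Vnn1 and Fgf21.

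The libraries were of nearly equal size, with 19349418 to 19730236 estimated counts each. The factors that correct for library composition (TMM) ran from 0.81 to 0.92 for WT and from 1.09 to 1.23 for Hom mice. Nek7 was at 62.9, 69.1 and 63.7 CPM (counts scaled to a common library size and corrected with TMM factors) in WT replicates 1, 2 and 3 and lower in each Hom liver, at 14.5, 18.1 and 16.7 CPM (log2 fold change -1.99, standard error (SE) 0.10). Replicate 1 of each group stood apart from the other pair of its group: chi-square per degree of freedom between libraries was 133.5 and 151.9 for the WT pairs that included it and 22.3 for the pair that did not, and 80.8 and 75.6 against 25.3 in Hom livers. Hom replicate 1 also had 0 counts of the Y-linked genes Ddx3y and Kdm5d, which had at least 243 counts in each of the other 5 livers, while Eif2s3y and Uty, also Y-linked, had 4 and 149 counts there and at least 464 in each of the others. Hom replicate 1 had the lowest value of the 3 Hom livers for 7 of the 9 genes. Without Hom replicate 1, 6 of the 9 genes were still lower (median log2 fold change -1.14), and with both replicates numbered 1 left out 6 were lower as well (median -1.07).

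Ppara (NCBI Gene 19013, chromosome 15 from 85734983 to 85802819 in GRCm38), which encodes the receptor, was at 200, 289 and 221 CPM in the WT livers (replicates 1, 2 and 3, in this order from here on) and at 83.0, 105 and 99.7 CPM in the Hom livers. All Hom livers were below all WT livers, and the Hom livers lay closer together than the WT livers. The means were 237 ± 46.4 CPM (SD, n = 3) and 96.0 ± 11.7 CPM (SD, n = 3), so that Hom livers held 40.6% of the WT mean (log2 fold change -1.30, SE 0.16, adjusted p = 0.00159). In RNA from whole tissue, fewer hepatocytes and less RNA per hepatocyte cannot be told apart. With values set relative to hepatocyte marker genes, Ppara was still lower, by a smaller amount (log2 fold change -0.50, adjusted p = 0.0493). The markers themselves had log2 fold changes from -2.95 to 1.23, so this scale is not a measure of hepatocyte number.

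Ppargc1a (NCBI Gene 19017, chromosome 5 from 51454250 to 51567726) encodes PGC-1α, a coactivator of PPARα that also drives gluconeogenic and mitochondrial genes. It was at 25.0, 21.4 and 15.1 CPM in WT and at 15.1, 10.1 and 8.49 CPM in Hom replicates 1, 2 and 3. WT replicate 3 and Hom replicate 1 were nearly equal, so the groups touched, and the other Hom livers were below all WT livers. The log2 fold change was -0.87 (SE 0.26, adjusted p = 0.0347). This call was the least stable of the 6: it was lost without WT replicate 1 (log2 fold change -0.71, adjusted p = 0.0871), WT replicate 2 (adjusted p = 0.0958), Hom replicate 2 (0.105) or Hom replicate 3 (0.103), with upper-quartile scaling (-0.78, adjusted p = 0.0503), with scaling by library size alone (-0.44, adjusted p = 0.186) and relative to hepatocyte markers (-0.10, adjusted p = 0.699).

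Cyp4a10 (NCBI Gene 13117, chromosome 4 from 115518264 to 115533649 in GRCm38) and Cyp4a14 (NCBI Gene 13119, chromosome 4 from 115486200 to 115496142) are neighbours that encode fatty acid ω-hydroxylases, enzymes that oxidise the far end of the fatty acid chain and feed the peroxisomal route of its breakdown. Cyp4a10 was at 436, 403 and 628 CPM in WT mice and at 25.2, 29.7 and 61.6 CPM in Hom mice. The lowest WT liver was several-fold above the highest Hom liver, and the mean was 12.6-fold lower in Hom livers (log2 fold change -3.65, SE 0.39, adjusted p = 9.33e-04).

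Cyp4a14 was at 1081, 187 and 521 CPM in WT mice and at 13.6, 11.6 and 32.7 CPM in Hom mice. The WT livers spanned a 5.78-fold range, the widest of the 9 genes in WT livers, yet no Hom liver came near the lowest of them. The mean was 30.9-fold lower in Hom livers (log2 fold change -4.95, SE 0.76, adjusted p = 0.00310), and the wide WT spread is carried in the 95% confidence interval of the log2 fold change, -7.06 to -2.84. Without WT replicate 1, which had the highest value, the log2 fold change was -4.20 (adjusted p = 0.00434).

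Reads of near-identical genes can be assigned to the wrong one. Cyp4a10 shared 24.5% of its 50-base transcript windows with Cyp4a32 and 15% with Cyp4a31 (GENCODE M21), so how reads were split among these 3 genes is uncertain, whereas Cyp4a14 shared 0% with any of them. Cyp4a32 and Cyp4a31 were lower as well (log2 fold changes -3.21 and -1.51). When the counts of the 3 genes that share sequence were summed, the sums were 8924, 7535 and 11549 in WT and 739, 960 and 1779 in Hom livers, and the log2 fold change was -3.49 (SE 0.35, adjusted p = 7.61e-04).

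Angptl4 (NCBI Gene 57875, chromosome 17 from 33773750 to 33781830) encodes a secreted protein that inhibits lipoprotein lipase and so limits the uptake of fatty acids from circulating triglycerides. It was at 224, 230 and 228 CPM in WT replicates 1, 2 and 3, the smallest relative spread of the 9 genes, and at 15.9, 21.6 and 34.7 CPM in Hom replicates 1, 2 and 3. All Hom livers were far below the narrow WT band. The mean was 9.46-fold lower (log2 fold change -3.24, SE 0.28, adjusted p = 4.92e-04). It was called lower in all 15 alternative fits, with log2 fold changes from -3.60 to -2.45. Lpl, the gene of the enzyme that Angptl4 inhibits, was higher in Hom livers, at 198, 190 and 221 CPM against 45.6, 37.1 and 38.3 CPM in WT livers (5.04-fold, log2 fold change 2.33, SE 0.12, adjusted p = 1.37e-04).

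Fgf21 (NCBI Gene 56636, chromosome 7 from 45613886 to 45615490) encodes a hormone that the liver releases on fasting under PPARα and under amino acid stress through ATF4. The 250 bases before its RefSeq start are shown because they hold the only match to any of the motifs in the promoters searched. Promoters were available for 5 of the 9 genes, and those of Angptl4, Vnn1, Cyp4a10 and Cyp4a14 were not searched. The match, in capitals, is to the ATF4-type element TGATGNAA on the opposite strand, and it starts at position -139 from the start site (chr7:45615491-45615740, minus strand, GRCm38.p6).
Fgf21 promoter: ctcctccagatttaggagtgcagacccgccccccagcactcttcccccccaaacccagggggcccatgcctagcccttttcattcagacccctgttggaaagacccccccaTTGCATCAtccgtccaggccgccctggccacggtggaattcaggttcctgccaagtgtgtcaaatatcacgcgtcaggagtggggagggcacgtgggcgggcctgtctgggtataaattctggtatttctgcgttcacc
The element is present in 3.97% of the 32851 RefSeq promoters of 300 bases (250 before and 50 after the start).

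Fgf21 was measured at 3.46, 1.15 and 0.983 CPM in WT mice and at 0.467, 3.01 and 0.603 CPM in Hom mice, from 10 to 73 counts per liver. Each group had 1 high liver, WT replicate 1 and Hom replicate 2, and the groups overlapped. The log2 fold change was -0.45 with a 95% confidence interval from -2.70 to 1.79 (adjusted p = 0.677), an interval that holds severalfold differences in either direction. Without WT replicate 1 the log2 fold change turned to 0.35 (adjusted p = 0.765).

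Bdh1 (NCBI Gene 71911, chromosome 16 from 31422280 to 31458901) encodes the mitochondrial dehydrogenase that interconverts acetoacetate and β-hydroxybutyrate, the last step of ketone body production. It was at 193, 202 and 200 CPM in WT mice and at 51.5, 91.6 and 97.6 CPM in Hom mice. The WT livers were tightly grouped, and Hom replicate 1 was the lowest of all 6 livers. Hom livers held 40.5% of the WT mean (log2 fold change -1.30, SE 0.23, adjusted p = 0.00508), and without Hom replicate 1 the log2 fold change was -1.07 (adjusted p = 0.00113). Relative to hepatocyte markers the value was -0.50 and did not pass the test (adjusted p = 0.120).

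Pdk4 (NCBI Gene 27273, chromosome 6 from 5483351 to 5496309) encodes a kinase that shuts the pyruvate dehydrogenase complex and so spares glucose during fasting. It was at 14.2, 8.02 and 10.0 CPM in WT mice and at 4.99, 10.3 and 10.9 CPM in Hom mice. Hom replicate 1 was the lowest liver, and Hom replicates 2 and 3 lay within the WT range. The log2 fold change was -0.30 (SE 0.33, adjusted p = 0.501) with a 95% confidence interval from -1.22 to 0.63, and its sign turned under library size scaling (0.16) and relative to hepatocyte markers (0.51). A fall of the size seen for Cyp4a10 or Angptl4 lies outside this interval.

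Vnn1 (NCBI Gene 22361, chromosome 10 from 23894688 to 23905343) encodes a pantetheinase, which releases pantothenate, the precursor of coenzyme A, and cysteamine. It was at 28.2, 32.8 and 47.9 CPM in WT mice and at 19.3, 50.007 and 58.3 CPM in Hom mice. The lowest and the highest values were both in Hom livers. The log2 fold change was 0.23 (SE 0.40, adjusted p = 0.668) with a 95% confidence interval from -0.87 to 1.33. Relative to hepatocyte markers Vnn1 was higher, with a log2 fold change of 1.04 (adjusted p = 0.0469), the only alternative fit of 15 in which it passed the test.

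**Figure D2:**
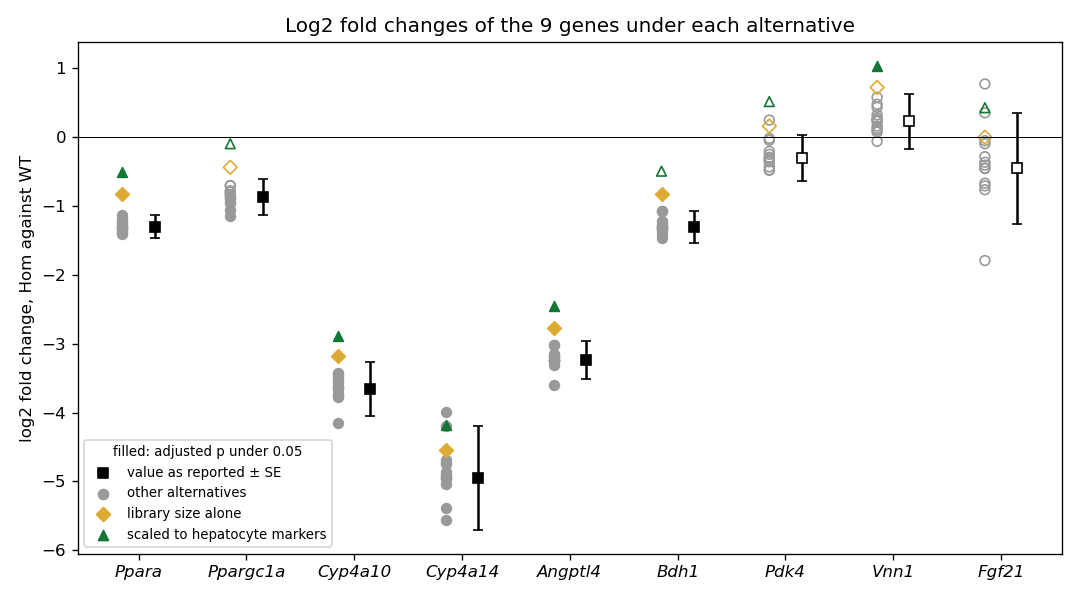
Log2 fold change of each of the 9 genes (vertical axis, Hom against WT) as reported, with its SE, and under each alternative setting, with filled symbols where the adjusted p was under 0.05. The 3 genes with the largest falls stay below -2 under all settings shown, whereas scaling by library size or to hepatocyte markers moves every gene upwards.

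The level of each gene per unit of length is given by TPM, which is not corrected for library composition. In WT livers the order of mean TPM was Cyp4a14 (377 ± 322, SD), Cyp4a10 (344 ± 76.3), Angptl4 (177 ± 17.8), Bdh1 (93.7 ± 8.53), Ppara (48.0 ± 6.40), Vnn1 (24.9 ± 5.33), Ppargc1a (4.72 ± 1.59), Pdk4 (4.66 ± 1.92) and Fgf21 (3.16 ± 2.71). The values of the livers overlapped between Cyp4a14 and Cyp4a10 and among Ppargc1a, Pdk4 and Fgf21, and Cyp4a14, through its low WT replicate 2, also overlapped Angptl4. The other neighbours in the order did not overlap. In Hom livers the order was Bdh1 (59.1 ± 21.4), Vnn1 (45.9 ± 23.8), Cyp4a10 (42.6 ± 22.8), Ppara (30.2 ± 5.66), Angptl4 (29.0 ± 12.5), Cyp4a14 (17.7 ± 11.1), Pdk4 (5.79 ± 2.43), Ppargc1a (3.88 ± 1.01) and Fgf21 (3.48 ± 3.80). Among the first 6, each overlapped its neighbour, as did each of the last 3, and the first 6 lay above the last 3 in every Hom liver. By mean TPM, Cyp4a14 thus stood first in WT livers and in place 6 in Hom livers. Its first place rested on WT replicate 1 (732 against 349 TPM for Cyp4a10). In WT replicates 2 and 3 Cyp4a14 was below Cyp4a10 (104 and 294 against 265 and 418 TPM).

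Summed over the 9 genes, TPM was 1471, 710 and 1049 in the WT mice, and 140, 253 and 321 in the Hom mice. All Hom livers were below the lowest WT liver. Cyp4a10, Cyp4a14 and Angptl4 made up 75.5% to 87.0% of this sum in WT mice, and their share was 28.7% to 44.1% in Hom mice.

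**Figure D3:**
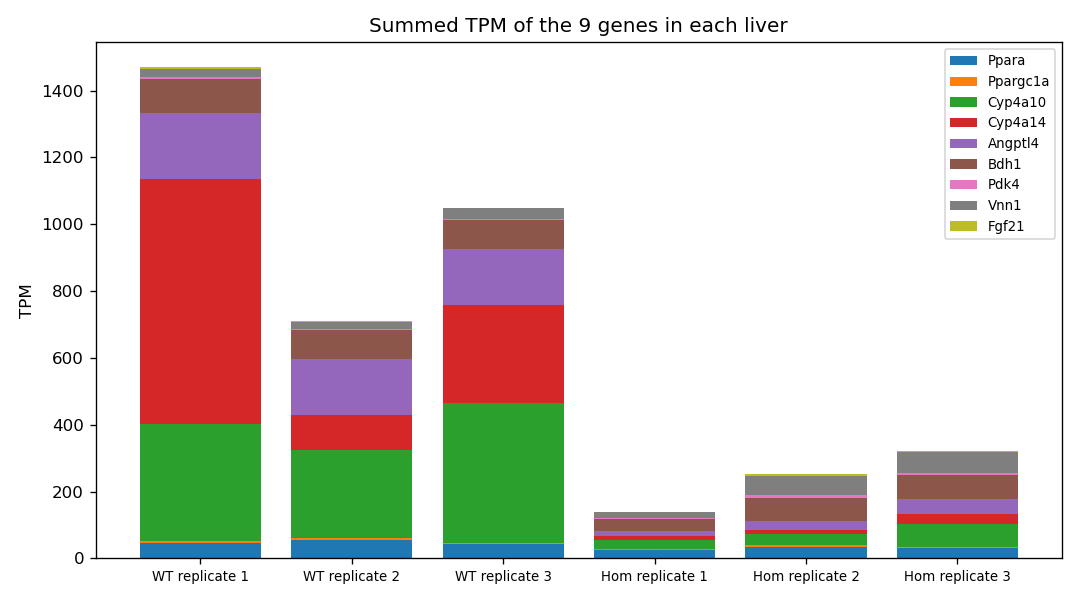
Summed TPM of the 9 genes in each of the 6 livers (bars from 0), stacked by gene. Cyp4a14 (red), Cyp4a10 (green) and Angptl4 (purple) fill most of each WT bar and 28.7% to 44.1% of each Hom bar.

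The other genes of ketone body metabolism were described with a list of 10 genes that includes Bdh1. Of these, 5 were lower, 1 was higher and 4 did not pass the test, with a median log2 fold change of -0.46. Besides Bdh1, the lower genes included Acat1, the thiolase, with a log2 fold change of -1.35 (adjusted p = 8.81e-04), and Bdh2, the cytosolic dehydrogenase. Bdh2 was at 11.8 ± 0.249 CPM in WT mice and at 2.79 ± 0.382 CPM in Hom mice (SD, n = 3), with no overlap (log2 fold change -2.07, SE 0.15, adjusted p = 3.16e-04). The higher gene was Oxct1, the transferase by which tissues other than liver use ketone bodies, which rose from 5.86 ± 1.65 to 12.8 ± 2.68 CPM (SD, n = 3, log2 fold change 1.13, adjusted p = 0.0105). The transporter gene Slc16a6 had a log2 fold change of 0.53 and did not pass (adjusted p = 0.0768). Relative to hepatocyte markers, Bdh2 was still lower (-1.29), while the list held 3 lower and 4 higher genes (median 0.33). On that scale 302 of all 13805 tested genes were lower and 10036 higher (median 0.78).

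A list of 48 other known PPARα targets had 40 genes lower (83.3%, against 20.1% of all tested genes), 2 higher and 6 that did not pass, with a median log2 fold change of -0.98. They covered fatty acid activation and transport (Acsl1 -2.05, Cpt1a -0.47, Cpt2 -1.15), mitochondrial β-oxidation (Acadvl -1.04, Acaa2 -1.33), peroxisomal β-oxidation (Ehhadh -0.86), acyl-CoA hydrolysis (Acot1 -3.58), fatty acid binding (Fabp1 -2.32), lipid droplets (Plin2 -0.88) and the transcription factor Creb3l3 (-0.84), all log2 fold changes past the test. Acot1 had the largest fall on the list, from 37.2 ± 6.05 to 3.10 ± 1.65 CPM (SD, n = 3). The 2 higher genes were Cd36, the fatty acid transporter (log2 fold change 1.32, 2.50-fold, adjusted p = 5.35e-04), and Pnpla2, the triglyceride lipase (0.24, adjusted p = 0.0377). Set beside these 48 genes, 0 of them had a lower log2 fold change than Cyp4a10 or Cyp4a14, 1 was lower than Angptl4, 13 were lower than Ppara or Bdh1, and 41 were lower than Pdk4. Several of these falls depended on the scaling. With library size alone, Cpt1a had a log2 fold change of 0.0039, and Ehhadh (-0.39, adjusted p = 0.228) and Plin2 (-0.41, adjusted p = 0.0566) did not pass the test. Relative to hepatocyte markers, Cpt1a was at 0.32, Ehhadh at -0.045, Plin2 at -0.088 and Creb3l3 at -0.068, none of them lower past the test, nor were Cpt2 (-0.38) and Acadvl (-0.25), while Acot1, Fabp1, Acsl1 and Acaa2 were lower (-2.79, -1.51, -1.25 and -0.55). On this scale 12 of the 48 genes were lower and 6 were higher (median -0.19, where the median of all tested genes was 0.78). Of all 13805 tested genes, 302 were lower and 10036 higher on this scale.

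RefSeq promoters were searched for DR1, the arrangement that PPARα and RXR bind, 2 copies of AGGTCA in the same direction with 1 base between them, on either strand with up to 2 mismatches. It was found in 3.86% of all 32851 promoters, in 0 of the 6 promoters of the 5 described genes with an entry (Ppara, Ppargc1a, Fgf21, Bdh1 and Pdk4), and in 6 of 48 promoters of 39 of the other targets (12.5%). Its half-site AGGTCA, which overlaps DR1, was in 16.3% of all and 25% of the target promoters. The 6 matches are shown with 10 bases on each side, on the strand of the gene in GRCm38.p6, with the match in capitals, because they are the receptor-type sequences that these windows hold.
Acot4 (chr12:84038356-84038388, plus strand): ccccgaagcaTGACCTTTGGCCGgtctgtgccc
Slc25a20 (chr9:108662132-108662164, plus strand): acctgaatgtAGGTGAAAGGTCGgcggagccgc
Fabp1 (chr6:71199802-71199834, plus strand): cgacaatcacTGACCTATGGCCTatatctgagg
Plin2 (chr4:86670262-86670294, minus strand): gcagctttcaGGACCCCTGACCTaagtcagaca
Creb3l3 (chr10:81092778-81092810, minus strand): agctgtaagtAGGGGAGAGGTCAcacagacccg
Cd36 (chr5:17835937-17835969, minus strand): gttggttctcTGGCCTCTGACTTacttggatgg
Of these genes, Fabp1, Slc25a20, Plin2 and Creb3l3 were lower in Hom livers (log2 fold changes -2.32, -0.99, -0.88 and -0.84), Cd36 was higher (1.32) and Acot4 did not pass the test (-0.25, adjusted p = 0.260). Relative to hepatocyte markers, Slc25a20 was at -0.21 and did not pass (adjusted p = 0.249), as was the case for Plin2 and Creb3l3. A match is a string of letters and not a measured binding site. TGACGTCA (the cAMP response element, in 1.79% of all promoters) and GTAAACA (the forkhead motif, 3.65%) had no match in the 6 promoters of the described genes.

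**Figure D4:**
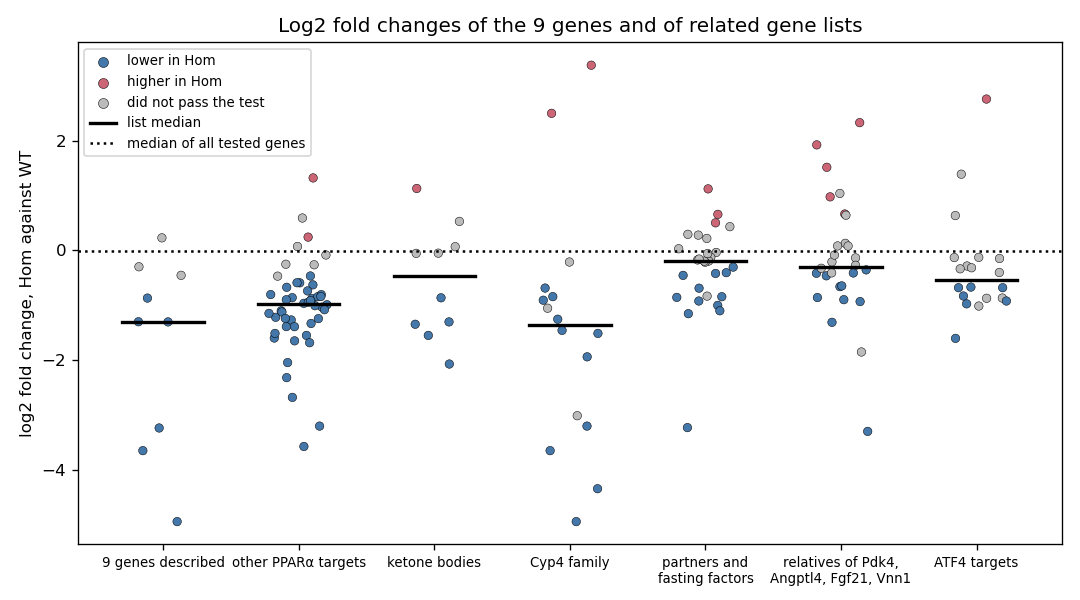
Log2 fold change (vertical axis, Hom against WT) of each tested gene of the 9 described and of 6 related lists, coloured by the test, with list medians as bars and the median of all tested genes as a dotted line. The other PPARα targets lie mostly below 0 (40 of 48 lower), while partners of the receptor and relatives of Angptl4, Fgf21, Pdk4 and Vnn1 spread to both sides.

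Partners of the receptor and other fasting regulators were a list of 29 genes, of which 12 were lower, 3 were higher and 14 did not pass (median log2 fold change -0.20). Rxra, the partner with which PPARα binds DNA, was at 495, 513 and 504 CPM in WT and 405, 362 and 375 CPM in Hom livers (log2 fold change -0.41, adjusted p = 0.0182), but its sign turned with library size alone (0.047) and relative to hepatocyte markers (0.37). The other PPAR genes moved in different directions: Ppard, the widely expressed form, was lower (-1.15, adjusted p = 0.0187, but -0.72 with adjusted p = 0.0935 with library size alone and -0.38 with adjusted p = 0.245 relative to hepatocyte markers) and Pparg, the adipogenic form, was higher, at 17.4 ± 3.35 against 7.95 ± 1.96 CPM (SD, n = 3, 1.12, adjusted p = 0.00755). Lpin1, which makes diacylglycerol and also acts with PGC-1α on PPARα, had the largest fall of the list, from 740 ± 223 to 78.7 ± 43.6 CPM (SD, n = 3, -3.23, adjusted p = 0.00188). With library size alone, 3 genes of the list were lower and 11 higher (median 0.26), so no direction is given for the list as a whole. Of all 13805 tested genes, 642 were lower and 6574 higher with that scaling.

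Of 19 Cyp4 genes, 16 were tested, 11 were lower, 2 were higher and 3 did not pass (median -1.36, and -0.57 with 7 lower relative to hepatocyte markers). Cyp4a12a, which in mouse liver is expressed mainly in males, was at 95.2, 449 and 628 CPM in WT and 0.280, 32.2 and 24.9 CPM in Hom replicates 1, 2 and 3 (log2 fold change -4.35, SE 1.29, adjusted p = 0.0332), a call that was lost without WT replicate 2 or 3 or without Hom replicate 2 or 3 (adjusted p from 0.0720 to 0.0942). Its lowest value was in Hom replicate 1, the library with 0 counts of Ddx3y and Kdm5d, and the part of the animals' sex in the values of the Cyp4a genes was not tested. The higher genes belonged to the Cyp4f group: Cyp4f18 rose from 0.717 ± 0.560 to 7.65 ± 3.16 CPM (SD, n = 3, 3.38, adjusted p = 0.00428) and Cyp4f16 had a log2 fold change of 2.50 (adjusted p = 0.00125).

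Genes related to Angptl4, Fgf21, Pdk4 and Vnn1 by family or pathway were a list of 29, of which 28 were tested, with 11 lower, 5 higher and 12 that did not pass (median -0.30). With library size alone 4 were lower and 11 higher, where 642 of all 13805 tested genes were lower and 6574 higher. Among the kinases, Pdk1 was lower (54.1, 64.5 and 64.1 CPM in WT and 17.2, 29.3 and 27.0 CPM in Hom livers, log2 fold change -1.31, adjusted p = 0.00285, and -0.51 with adjusted p = 0.0914 relative to hepatocyte markers), and Pdk2 (-0.21, adjusted p = 0.282, positive under library size and hepatocyte marker scaling at 0.26 and 0.57) and Pdk3 (1.04, adjusted p = 0.0561) did not pass. Among the angiopoietin-like genes, Angptl6 had a log2 fold change of -3.30 (adjusted p = 9.42e-05), close in size to that of Angptl4. For the FGF21 receptor, the co-receptor gene Klb had a log2 fold change of -0.41 that did not pass (adjusted p = 0.0589), while Fgfr1 was higher, at 42.3, 25.0 and 31.0 CPM in Hom against 6.76, 15.2 and 12.5 CPM in WT livers (1.52, adjusted p = 0.00933). Vnn3, another vanin gene, had a log2 fold change of 0.64 (adjusted p = 0.0693), and Pank1, the kinase that starts coenzyme A synthesis, was lower (-0.86, adjusted p = 0.00548, and -0.071 with adjusted p = 0.742 relative to hepatocyte markers).

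The list of ATF4 targets, the other arm that acts on Fgf21, had 20 tested genes of 22, with 7 lower, 1 higher and 12 that did not pass (median -0.54). With library size alone 1 was lower and 2 were higher (median -0.073), where 642 of all 13805 tested genes were lower and 6574 higher. Chac1, a glutathione-degrading enzyme, had the largest fall (4.99 ± 1.86 to 1.63 ± 0.690 CPM, SD, n = 3, log2 fold change -1.61, adjusted p = 0.0199), which did not pass with library size alone (-1.12, adjusted p = 0.0605) or relative to hepatocyte markers (-0.81, adjusted p = 0.126). The higher gene was Atf3, at 10.1, 9.44 and 8.10 CPM in Hom against 2.01, 1.41 and 0.614 CPM in WT livers (2.76, adjusted p = 0.00187).

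Markers of the liver's cell types also differed between the groups. Hepatocyte markers were lower for 14 of 25 genes and higher for 1, with a median log2 fold change of -0.58, and their summed level was 207916 to 243282 CPM in WT and 102290 to 147666 CPM in Hom livers. Cholangiocyte markers were higher for 10 of 12 (median 3.02, summed level 57.1 to 83.0 against 660 to 893 CPM), and stellate cell markers were higher for 7 of 14 and lower for 1 (median 0.95, 410 to 483 against 796 to 907 CPM). Macrophage markers were higher for 3 and lower for 2 of 14 (368 to 887 against 612 to 855 CPM), and endothelial markers were lower for 5 and higher for 1 of 12 (309 to 410 against 269 to 274 CPM). With library size alone, macrophage markers were higher for 8 and lower for 1, endothelial markers were lower for 2 and higher for 3, and hepatocyte markers were lower for 8 and higher for 2. Of all 13805 tested genes, 6574 were higher and 642 lower with this scaling. Without both replicates numbered 1, 9 macrophage markers were higher and 2 lower (of all 13989 genes tested there, 3339 were higher and 2871 lower). Cholangiocyte markers were higher for 10 of 12 under each of these settings. Of 6 adipocyte markers only Cidea had enough counts for a test, and it did not pass. The summed level of the 6 was 0.112 to 3.56 CPM in WT and 0.453 to 2.01 CPM in Hom livers, with Adipoq, Plin1, Lep, Retn and Cfd not tested. The part of this shift in cell type markers in the falls of the 9 genes was not tested. When values were set relative to hepatocyte markers, which moved the median of all tested genes to 0.78, Angptl4, Cyp4a10, Cyp4a14 and Ppara were lower (log2 fold changes -2.45, -2.88, -4.18 and -0.50), and Bdh1 and Ppargc1a did not pass the test. With library size alone, where that median was 0.45, 5 of the 9 genes were lower, all of the 6 except Ppargc1a.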

How the data were processed

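Liver RNA of 6 mice (3 WT, 3 Hom), 1 mouse per library, was sequenced on the DNBSEQ platform. The submitters' processing notes name HISAT2 2.0.4, Bowtie2 2.2.5, RSEM 1.2.12 and the build mm9, without their roles. The authors deposited estimated counts (expected counts, not scaled, 65.88% of them whole numbers), FPKM and TPM values for each liver. The authors' TPM values were used to compare levels between genes, and the deposited FPKM values only to recover gene length. The deposited mean columns carry crossed group names for all 17975 genes and were not used.

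Estimated counts were rounded. The quasi-likelihood test of edgeR 4.0.16 (R 4.3.3) compared Hom with WT over the 13805 genes that passed filterByExpr, after TMM scaling. Adjustment followed Benjamini and Hochberg over all tested genes, and a gene was called at an adjusted p under 0.05. The standard error (SE) is the absolute log2 fold change divided by the square root of F. CPM values are rounded counts scaled to a common library size with TMM factors. Fgf21 had the fewest counts of the 9 genes, and how much of its spread comes from counting was not tested. P-values measure the spread between these mice.

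The genes and lists were chosen with earlier results of these data known. Besides the 9 genes and Nek7, those named were a fixed set of relatives (some of them are not reported here) and, from each pathway list, the called genes with the largest rise and fall at a mean of at least 1 CPM. Acat1, Acsl1, Cpt2, Acadvl, Acaa2, Fabp1, Slc25a20, Acot4, Pnpla2, Ppard and Cyp4f16 were named after their values were seen. Positions are from GENCODE M21 and promoters from RefSeq, both GRCm38, and were not used to read the counts. On simulated data, 91 of 181 tested genes changed by 1 on the log2 scale were recovered (50.3%), and 0.077% of unchanged genes were called, among 13139 tested. The simulation drew both groups from the WT mean profile and changed 200 genes, whereas 41.7% of tested genes were called in the data. Its rates are therefore not those of the reported fit. Alternatives were DESeq2 1.42.0, library size alone, upper-quartile factors, scaling to the geometric mean of hepatocyte markers, a minimum of 10 counts in every liver, no filter, a loess correction for gene length, a block for the replicate number, single livers left out in turn and a minimum fold (a log2 change of 1 in either direction). Leaving out both replicates numbered 1 and summing 3 or 4 Cyp4a genes were added after the data were seen.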

Additional observations from a re-analysis of the deposited data

How the results depend on the processing

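Ppara, Angptl4, Cyp4a10 and Cyp4a14 stayed lower past the threshold in all 15 alternative fits, Bdh1 in 14 and Ppargc1a in 8. With a minimum log2 change of 1 applied to the reported fit, 5 of the 9 genes were lower, without Ppargc1a, and the number of the 9 genes called lower was 5 to 6 over the single livers left out. Fgf21, Pdk4 and Vnn1 did not pass in any, except Vnn1 relative to hepatocyte markers, where 1 gene was higher. Log2 fold changes turned sign for Fgf21 relative to hepatocyte markers (0.43) and without both replicates numbered 1 (0.77), with a range of -1.79 to 0.35 over the single livers left out, and for Pdk4 (0.16 with library size alone, 0.51 relative to hepatocyte markers, 0.25 without both replicates 1) and Vnn1 (-0.062 to 0.58 over the single livers left out, lowest without Hom replicate 3). The signs of Rxra (0.047 and 0.37), Klb (0.046 and 0.37), Pdk2 (0.26 and 0.57) and Cpt1a (0.0039 and 0.32) turned with library size alone and relative to hepatocyte markers. With these scalings the median log2 fold change of all tested genes was 0.45 and 0.78, against -0.0018 as reported.

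Over all genes, 642 were lower and 6574 higher with library size alone, 302 and 10036 relative to hepatocyte markers, and 575 and 1825 with a minimum log2 change of 1 in either direction, against 2780 and 2974 as reported. Leaving out single livers gave 1767 to 2750 lower and 1986 to 3057 higher genes. Among ketone body genes, 3 were higher with library size alone, 3 lower and 4 higher relative to hepatocyte markers, 2 higher with the replicate block, 2 higher without both replicates 1, and 1 to 2 higher over single livers left out. Among the 48 PPARα targets, 4 were higher with library size alone, 12 lower and 6 higher relative to hepatocyte markers, 23 lower and 1 higher with a minimum log2 change of 1 in either direction, 1 higher with no filter, with the replicate block or without both replicates 1, and 1 to 2 higher over single livers left out. Except where a setting itself leaves out genes or livers, the cause of these moves was not tested.

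WT and Hom mice share replicate numbers but are different mice, and deviations from the group means did not go together by number (correlations of -0.050, -0.031 and 0.0073), so the numbers do not pair the livers. A block for the replicate number gave 2214 lower and 2383 higher genes. Of the 9 genes 6 were lower in this fit, and Rxra did not pass the threshold (adjusted p = 0.0504). Fgf21 had the fewest counts of the 9 genes, 10 to 73 per liver, with within-group ranges of 3.52-fold in WT and 6.45-fold in Hom livers.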
